A study of Mus musculus with 6 samples.

Results

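The genes described here are the integrin and laminin genes measured in injured mouse kidney. They were taken as the protein-coding entries whose symbols begin with Itga, with Itgb and a digit, or with Lama, Lamb or Lamc and a digit. The leukocyte genes Itgal, Itgam and Itgb2 and integrin-binding proteins were left out. The rule found 34 of 25805 listed genes, namely 15 integrin alpha, 8 integrin beta and 11 laminin chain genes. RNA sequencing was done on kidneys of mice after ischaemia-reperfusion injury (IRI), in which blood flow is stopped and then restored. The 6 libraries form 2 groups of 3, 1 of wild-type (WT) mice and 1 of mice labelled Cxcr2 knockout, and both groups were injured. The series set out to compare gene expression between the 2 genotypes. The labels used here give no strain, sex, age, time after injury or design of the knockout allele, and do not say whether each library is 1 animal, so p-values measure the spread between these libraries, which may be technical.

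Laminins are large secreted trimers of 1 alpha, 1 beta and 1 gamma chain that assemble into the sheet of every basement membrane. Integrins are membrane receptors of 1 alpha and 1 beta chain that hold cells to laminin, collagen, fibronectin and other ligands and link them to the actin skeleton. In kidney, basement membranes surround every tubule and form the glomerular filter, where the chains of Lama5, Lamb2 and Lamc1 make up the mature laminin and the receptor built from Itga3 and Itgb1 anchors podocytes to it.

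Each library held 15518083 to 20356601 recovered reads. Values below are normalized read counts, that is, reads divided by 1 size factor per library. Cxcr2 itself stood at 15.9, 88.8 and 56.9 in wild-type libraries 1 to 3 and at 98.0, 36.8 and 56.6 in the libraries labelled knockout, so its sum over the whole gene does not tell the groups apart and every direction below is one between labels. Kidney markers were high in all libraries, with the proximal tubule gene Lrp2 at 5666 to 18651. Labelled-knockout library 1 stood apart: its 6 fat cell markers summed to 39234, against 343 to 2587 in the other 5, and its 5 erythrocyte markers to 13289, against 656 to 2771. Labelled-knockout library 3 had the lowest sums of the 12 mural cell and fibroblast markers (4166, against 8104 to 23175 elsewhere), of the 10 endothelial markers (5500, against 10907 to 22106) and of the 7 collecting duct markers (2968, against 10319 to 24923). Injured tubule markers summed to 109706 to 142344 in the wild-type group and 44616 to 131995 in the other, and thick limb and distal tubule markers to 40061 to 78465 and 22249 to 85432. In bulk tissue, fewer cells of a type and less RNA per cell cannot be told apart.

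For 29 of the 34 integrin and laminin genes the 2 groups overlapped, while 3 genes were lower and 2 higher in every library labelled knockout than in any wild-type library. Lower values were found for Lama2, a laminin alpha chain of muscle and stroma, for Itga9, a receptor chain for tenascin and Vcam1, and for Itga5, the fibronectin receptor chain. Higher values were found for the epithelial laminin chains Lama1 and Lama3. All 34 members passed the filter on low values. None of them passed limma's adjusted threshold, which 1 of 21721 genes (0.0046%) did. At an unadjusted limma p under 0.05 there were 5 members, 2 higher and 3 lower, where 10.1% of all tested genes were past it, 3.94% higher and 6.14% lower. The same 5 members were the ones whose groups did not overlap, and 17.7% of all tested genes had groups that did not overlap, 8.27% being higher and 9.43% lower. The 5 of 34 are 14.7%, so neither share stands far from that of all genes. Differences are given as the labelled-knockout minus the wild-type mean of log2(normalized count + 1), a scale that understates the change of low genes. Their median was -0.17 over the members and -0.0010 over all tested genes, and 20 of 34 members had lower values against 10878 of 21721 genes. The members' median was 0.0068 with edgeR, whose own filter left out Itga11, -0.017 with DESeq2 and -0.035 without labelled-knockout library 3. The DESeq2 test on the recovered reads called 2 members, Lama2 and Itga9, both lower, against 1.8% of genes called in either direction, 0.598% higher and 1.2% lower. The edgeR test called no member, against 0.00628% of genes, and the same 5 members were past its unadjusted p of 0.05. The count moved with single libraries. Without labelled-knockout library 1, 8 members were lower at an unadjusted p under 0.05, the 3 above and 5 others, among them Itgb3, Lamb2, Lamc1 and Lamc3. The count of higher members was 1 without library 1 of the labelled knockout or without any 1 of the wild-type libraries, each time leaving Lama1 but not Lama3, and 3 without labelled-knockout library 3. The share of all tested genes past that p was not counted with 1 library left out. These shifts are therefore not shown to be particular to the members.

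**Figure D1:**
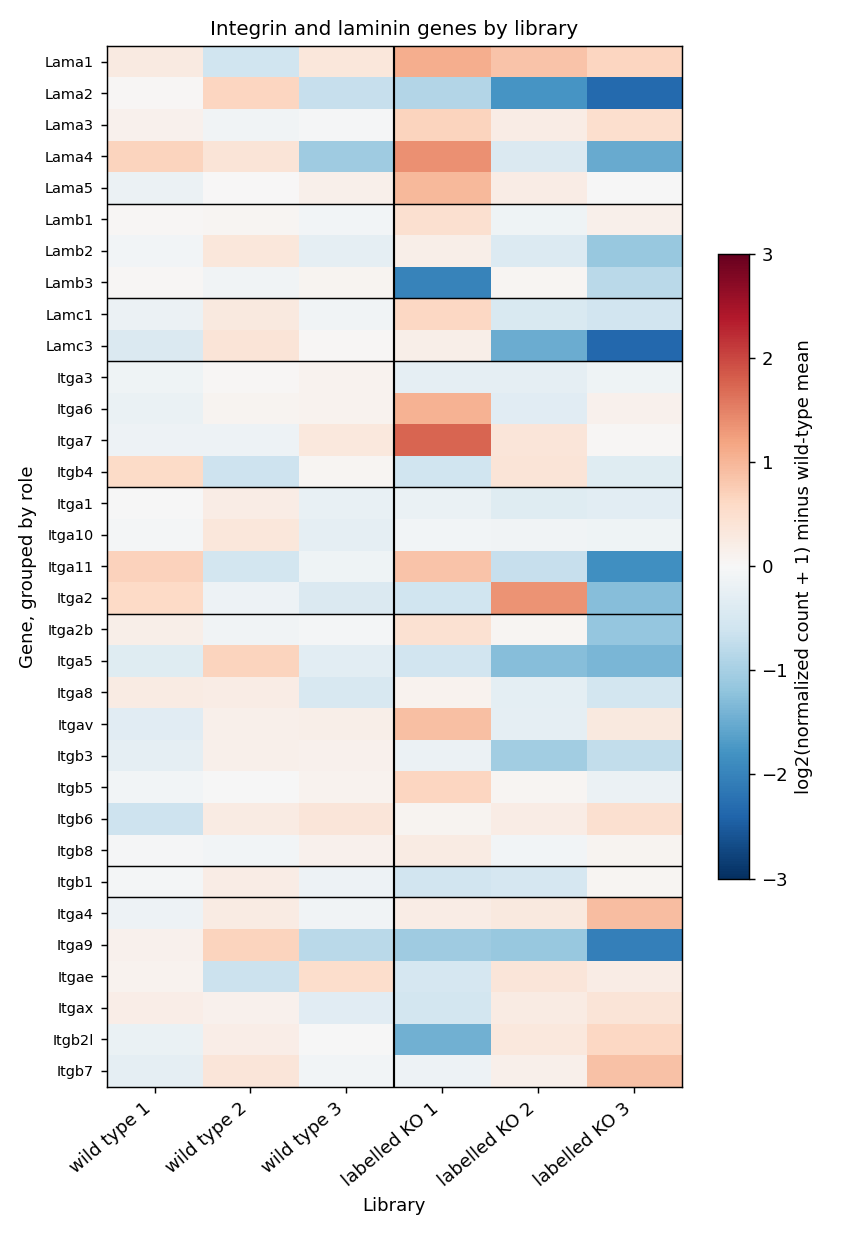
Heat map of 33 of the 34 genes (rows, grouped by role) in the 6 libraries (columns). Colour gives log2(normalized count + 1) minus the mean of the 3 wild-type libraries, so that Lama2 and Itga9 are blue in all 3 libraries labelled knockout, Lama1 and Lama3 are red in all 3, while Itga7 and Lama5 are reddest in labelled-knockout library 1 and Lamc3 is bluest in library 3.

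The libraries labelled knockout differed among themselves. Labelled-knockout library 1 was the highest of the 6 for 13 of 34 members, among them Lama5, Lamb1, Lamc1, Itga6, Itga7, Itgav and Itgb5, while it was the highest for 28.4% of all tested genes. Labelled-knockout library 3 was the lowest for 12 of 34 members, among them Lama2, Lama4, Lamb2, Lamc3, Itga9 and Itga11, against 16.4% of all tested genes. In the wild-type group, library 2 was the highest of the 6 for 10 of 34 members, among them Lama2, Itga9 and Itga5, against 16.6% of all tested genes. The part of the fat, blood and stromal content of the libraries in those values was not tested.

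Integrin and laminin chains spanned a wide range of levels. Per kilobase of gene model, Itgb1, the beta chain that most alpha chains share, was the most abundant at 2295 ± 312 in wild type and 1840 ± 451 under the knockout label (SD, n = 3 each). Next in wild type came Itgb5 (619 ± 44.4), Itga3 (502 ± 40.7) and Itga6 (393 ± 43.8). In the wild-type libraries the ranges of Itga6, Itga5, Itgav and Itgb6 each overlapped that of the next gene (Itga5, Itgav, Itgb6 and Itgb8 in turn), while Itgb1, Itgb5, Itga3 and Itgb8 stood clear of the gene that followed. Among laminins, Lama5 led at 465 ± 52.0 per kilobase, followed by Lamb2 (314 ± 68.5) and Lamb1 (300.2 ± 15.0), whose ranges overlapped, and then by Lamc1 (218 ± 39.3). Among the libraries labelled knockout, Itga5 moved from rank 5 to rank 8 among the 23 integrins and Itga9 from rank 10 to rank 14.

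Of the 34 members, 23 had a promoter in the RefSeq table (build GRCm38.p6), and for 17 of these the window lay within 100 bases of the start of the deposited gene model. The 250 bases before the start are printed for Lama5 and Itgb1, the most abundant chain of each family, and for Itga5. Itga5 and Itga9 are alpha chains that each pair with Itgb1, and both had lower values in every library labelled knockout. They are read 5′ to 3′ on the strand of the gene. Capitals mark GC boxes (GGGCGG) and TEAD sites (GGAATG), searched on both strands with no overlap between them in these windows. The windows lie at chr2:180225860-180226109 on the minus strand, chr8:128685404-128685653 on the plus strand and chr15:103366792-103367041 on the minus strand, none of them in an exon of GENCODE M21.
Lama5: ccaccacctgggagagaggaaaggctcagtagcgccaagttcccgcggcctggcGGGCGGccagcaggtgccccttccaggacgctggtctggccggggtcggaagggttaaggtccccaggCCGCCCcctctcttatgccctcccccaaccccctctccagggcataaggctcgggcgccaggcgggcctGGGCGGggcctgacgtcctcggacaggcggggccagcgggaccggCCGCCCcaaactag
Itgb1: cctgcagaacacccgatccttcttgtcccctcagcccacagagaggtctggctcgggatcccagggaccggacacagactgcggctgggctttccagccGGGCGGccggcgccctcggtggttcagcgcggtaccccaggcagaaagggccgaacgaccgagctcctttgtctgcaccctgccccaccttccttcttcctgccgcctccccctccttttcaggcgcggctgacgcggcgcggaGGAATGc
Itga5: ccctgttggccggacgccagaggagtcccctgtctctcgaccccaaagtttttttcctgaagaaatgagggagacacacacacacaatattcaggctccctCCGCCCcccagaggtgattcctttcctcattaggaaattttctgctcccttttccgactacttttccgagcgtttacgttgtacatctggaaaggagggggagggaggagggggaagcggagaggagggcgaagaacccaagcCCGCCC
The Lama5 window had 4 GC boxes, that of Itga5 had 2, and that of Itgb1 had 1 with 1 TEAD site close to the start. Over the 17 member windows, 7 held a GC box (41.2%), against 32.7% of 32851 windows of the same length in the table. Those windows came from 27025 genes and, unlike the member windows, were not limited to 100 bases from a deposited start. A TEAD site was in 2 of 17, against 12.6%, an AP-1 site (TGANTCA) in 1 of 17, against 6.75%, and a CArG box in 0 of 17, against 1.47%. The member windows had a median GC content of 60.8%, against 52.4%. A match is a description of these letters only.

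Among the laminin alpha chains, Lama2 (ENSMUSG00000019899, chr10:26980036-27619758, minus strand, mm10) showed the largest difference. In order of library number its normalized count was 246, 375 and 147 in wild type and 129, 69.7 and 46.3 in the libraries labelled knockout. The highest labelled-knockout value lay just under the lowest wild-type value. The means were 256 ± 114 and 81.7 ± 42.7 (SD, n = 3), 3.13-fold lower, with a log2 difference of -1.66 (limma SE 0.46, 95% interval -2.70 to -0.62, adjusted p = 0.383). DESeq2 called it lower (DESeq2 log2 fold change -1.65, adjusted p = 0.03). Leaving out 1 library at a time gave log2 differences between -2.05 and -1.32. The antisense gene Gm48084 covers 3.86% of the exon bases of Lama2 and Gm29200 covers 1.83% of those of Lama3, and reads of such pairs cannot be told apart where strand was not used.

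Lama1 (ENSMUSG00000032796, chr17:67697259-67822647, plus strand), the alpha chain of early epithelial basement membranes and of the proximal tubule, stood at 362, 198 and 379 in wild type and 642, 545 and 472 under the knockout label. Every labelled-knockout library was above every wild-type library, and wild-type library 2 was far below the rest. The log2 difference was 0.87 (limma SE 0.28, 95% interval 0.24 to 1.49, adjusted p = 0.399), and it was 0.57 without wild-type library 2. The 8 proximal tubule markers summed to 82899, 44701 and 67758 in wild type and 146594, 99833 and 56371 under the knockout label, so that wild-type library 2 was lowest for these too, while labelled-knockout library 3 was second lowest. Of these markers, 7 of 8 had higher means on the log2 scale, 3 of them at an unadjusted limma p under 0.05. Their median log2 difference was 0.79. Over all tested genes, 10843 of 21721 had higher means and 3.94% were higher at that p. The part of proximal tubule content in the Lama1 values was not tested.

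Lama3 (ENSMUSG00000024421, chr18:12333819-12583013, plus strand), the alpha chain of laminins that anchor epithelia, stood at 368, 313 and 324 in wild type and 536, 393 and 478 under the knockout label. The groups did not overlap, but the gap between 368 and 393 was smaller than the range within either group. The log2 difference was 0.48 (limma SE 0.19, adjusted p = 0.467). Lamb3, the beta chain that pairs with Lama3, stood at 293, 266 and 301 in wild type and 70.2, 298 and 163 under the knockout label, with only labelled-knockout library 1 and library 3 below the wild-type range. Its log2 difference was -0.92 (limma SE 0.46, adjusted p = 0.549), and -0.38 without labelled-knockout library 1.

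Lama5, the most abundant alpha chain and a main one of adult kidney, stood at 4706, 5302 and 5891 in wild type and 10406, 6131 and 5272 under the knockout label. Only labelled-knockout library 1 lay well above wild type, and the log2 difference of 0.40 (limma SE 0.26, adjusted p = 0.614) was 0.11 without that library. Podocyte markers, from cells that make Lama5, summed to 7609 to 9652 in the wild-type group and 8538 to 10686 in the other. Lama4, the alpha chain of vessel walls and fat, varied widely between libraries, at 262, 216 and 78.5 in wild type and 428, 122 and 56.6 under the knockout label. It was highest in labelled-knockout library 1, the library with the fat cell transcripts, and its log2 difference of -0.19 (limma SE 0.78) was 0.12 with DESeq2 and with edgeR.

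The beta chains and the gamma chains Lamc1 and Lamc3 gave no group difference past limma's threshold. Lamb1, common in developing and tubular basement membranes, stood at 2809 to 3093 in wild type and 2727 to 4152 under the knockout label, and Lamb2, of the glomerular and vascular membranes, at 1786, 2374 and 1569 and then 2127, 1412 and 856. The log2 differences were 0.17 (limma SE 0.18) and -0.46 (limma SE 0.32), with limma adjusted p of 0.767 and 0.648. Single libraries moved both: Lamb1 stood at 0.018 without labelled-knockout library 1 and 0.32 without library 2, and Lamb2 at -0.77 without library 1, -0.12 without library 3 and -0.29 without wild-type library 2. Lamc1, the gamma chain of most laminins, stood at 1566, 2173 and 1667 against 2753, 1301 and 1199 (log2 difference -0.13, limma SE 0.31). Lamc3 stood at 93.6, 166 and 130 in wild type and 143, 44.5 and 23.7 under the knockout label. Labelled-knockout library 1 lay within the wild-type range and the other two lay far below it. Its log2 difference of -1.23 (limma SE 0.60, adjusted p = 0.54) became -1.92 when labelled-knockout library 1 was left out and -0.65 when library 3 was.

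The make-up of each chain class was compared as the share of each gene in its class, per kilobase. Lama5 made up 83.0% ± 3.41 of the alpha total in wild type and 83.6% ± 1.51 under the knockout label (SD, n = 3). Lama2 made up 2.88%, 4.13% and 1.49% in wild type and 0.74%, 0.66% and 0.50% under the knockout label, with no overlap. The share of Lamb1 in the beta total was 47.5%, 42.0% and 48.3% in wild type and 53.7%, 49.8% and 67.0% under the knockout label, also with no overlap. Both reached 0.1 in a two-sided exact permutation test, the smallest p that 3 against 3 allows, and 0.55 after Benjamini-Hochberg adjustment over the 11 chains. The remaining 9 shares overlapped between groups. The ratio of Lama1 to Lama2 per kilobase was 2.49, 0.892 and 4.36 in wild type and 8.38, 13.2 and 17.2 under the knockout label. Since Lama1 was higher and Lama2 lower in every library labelled knockout, this ratio had to separate the groups. It is therefore no further result.

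**Figure D2:**
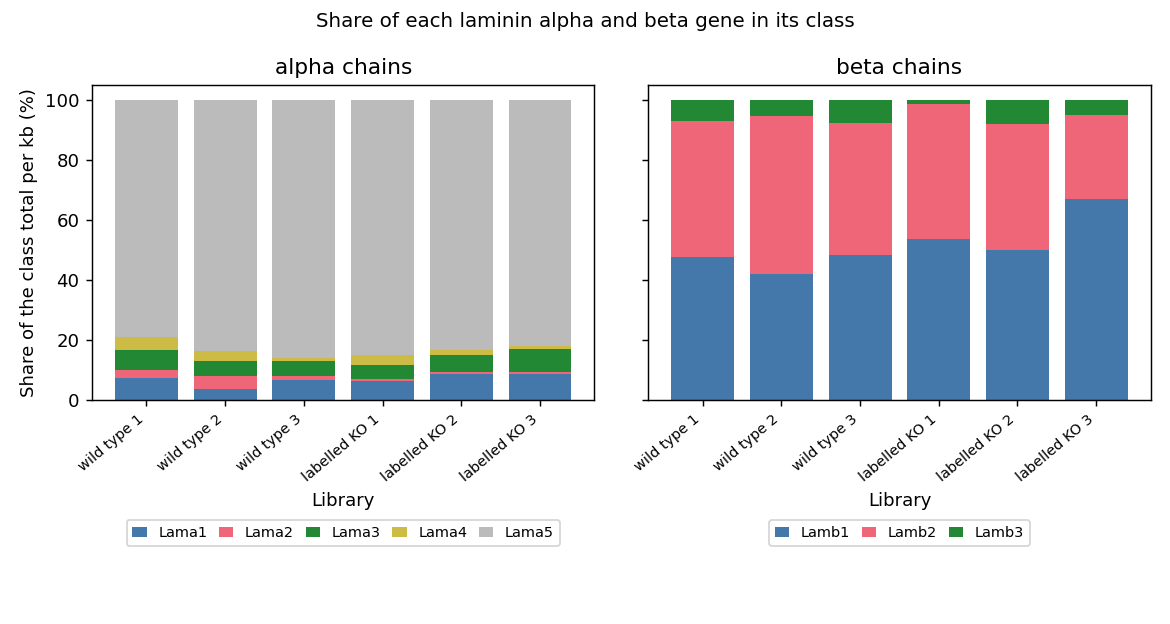
Stacked bars of the share (in percent, y axis) of each laminin alpha and beta gene in the per-kilobase total of its chain class, in each of the 6 libraries (x axis). Lama5 fills 79.2% to 85.9% of every alpha bar, and the Lamb1 part is largest in labelled-knockout library 3, at 67.0%.

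The laminin-binding integrins include Itga3, Itga6 and Itga7, which pair with Itgb1, and Itgb4, which pairs with Itga6 in hemidesmosomes. None of the 4 had an unadjusted limma p under 0.05. Itga3 stood at 2605, 2931 and 3056 in wild type and 2366, 2374 and 2634 under the knockout label, a small overlap, with a log2 difference of -0.22 (limma SE 0.15, 95% interval -0.56 to 0.12). Itga6 stood at 3091, 3764 and 3787 against 7251, 2792 and 3855, so that labelled-knockout library 1 alone was high, and its log2 difference of 0.27 was -0.11 without that library. Itga7, the laminin receptor chain of muscle, stood at 406, 408 and 564 against 1535, 589 and 465, again with library 1 alone high, and its log2 difference of 0.72 (limma SE 0.42) was 0.20 without it. Its unadjusted p was 0.0367 with DESeq2 (adjusted 0.357) and 0.0263 with limma when labelled-knockout library 3 was left out (adjusted 0.441). The 3 muscle markers summed to 31.2 in labelled-knockout library 1 and to 13.4 to 30.9 in the other 5. Itgb4 ranged from 265 to 604 in wild type and from 268 to 533 under the knockout label. Itga6 shares a stretch of 326 bases with the entry Gm29397, so its count is uncertain.

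Itgb1 stood at 8884, 10811 and 8402 in wild type and 6295, 6606 and 9626 under the knockout label. Labelled-knockout library 3 lay inside the wild-type range and the other two below it, with a log2 difference of -0.34 (limma SE 0.21, adjusted p = 0.605). The 12 alpha chains that can pair with it summed to 1800 ± 270 per kilobase in wild type and 1744 ± 528 under the knockout label. The ratio of that sum to Itgb1 was 0.710, 0.787 and 0.860 in wild type and 1.52, 0.823 and 0.662 under the knockout label. Labelled-knockout library 1 was the one library with more alpha than Itgb1 transcript per kilobase.

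Itga5, Itga8, Itgav and Itga2b, with their beta chains, bind fibronectin and other ligands that carry the RGD tripeptide. Itga5 (ENSMUSG00000000555, chr15:103344286-103366763, minus strand) stood at 1209, 2493 and 1253 in wild type and 1040, 640 and 604 under the knockout label. Wild-type library 2 was far above the other two of its group, and labelled-knockout library 1 lay close below the lowest wild-type library. The means were 1652 ± 729 and 761 ± 242 (SD, n = 3), 2.17-fold lower, with a log2 difference of -1.08 (limma SE 0.32, 95% interval -1.82 to -0.33, adjusted p = 0.391, DESeq2 adjusted p = 0.0789). It was -0.74 without wild-type library 2. Among alpha chains that pair with Itgb1, Itga5 made up 15.9%, 24.2% and 14.3% in wild type and 9.02%, 9.74% and 7.85% under the knockout label. The shares of the other alpha chains, Itga9 included, overlapped between groups, and these shares were not tested.

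Itgav, which forms receptors that activate TGF-beta together with Itgb6 or Itgb8, stood at 2644, 3712 and 3791 in wild type and 6194, 2773 and 4076 under the knockout label. Its log2 difference of 0.30 (limma SE 0.29) was 0.010 without labelled-knockout library 1. The epithelial partner Itgb6 had 1194, 2185 and 2386 against 1961, 2154 and 2555, and Itgb8 had 1726 to 2005 against 1749 to 2184. Itgb5, the most abundant partner, had 2061, 2164 and 2371 against 3418, 2269 and 1936, with labelled-knockout library 1 alone clearly higher. Itgb3, the partner found on platelets, endothelium and stroma, had 134, 179 and 176 against 143, 77.5 and 96.7 (log2 difference -0.66, limma SE 0.31, adjusted p = 0.52). Its share among Itgb3, Itgb5, Itgb6 and Itgb8 per kilobase was 2.43%, 2.76% and 2.46% in wild type and 1.66%, 1.18% and 1.49% under the knockout label. The shares of Itgb5, Itgb6 and Itgb8 overlapped between groups, and these shares were not tested. Itga2b, the platelet chain that pairs with Itgb3, had 155 to 190 against 74.1 to 229. The 5 platelet markers, Itga2b included, summed to 315 to 402 against 126 to 480, with 3 of 5 higher and a median log2 difference of 0.38. Only 1 of them had an unadjusted limma p under 0.05, and it was lower, where 6.14% of all tested genes were. In labelled-knockout libraries 1 to 3 the list's median log2 distance from the wild-type mean was 2.35, 0.063 and -1.17. Itga8, a mesangial and smooth muscle chain, had 73.9 to 124 against 70.0 to 111. Itgb5 shares 343 bases at 99.7% identity with Gm38317, and its count is uncertain.

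All 4 collagen-binding chains had negative log2 differences, and none of them had an unadjusted limma p under 0.05. The shared direction was not kept: Itga10 stood at 0.068 without wild-type library 2, Itga11 at 0.080 without labelled-knockout library 3, and Itga2 turned in several settings. Itga1, the main one, stood at 1490, 1750 and 1268 in wild type and 1307, 1156 and 1205 under the knockout label (log2 difference -0.29, limma SE 0.17). Itga2 was low and uneven, at 48.9 to 101 against 26.8 to 170, and its log2 difference of -0.18 was 0.20 with DESeq2 and with edgeR. Itga10 (44.4 to 68.5 against 49.4 to 51.2) and the stromal chain Itga11 (6.48 to 16.7 against 2.06 to 18.9) were low in every library. A further gene, Gm42957, covers 33.5% of the exon bases of Itga10, so that count is uncertain.

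The remaining 6 chains are found on leukocytes or bind Vcam1. Itga9 (ENSMUSG00000039115, chr9:118606690-118901003, plus strand), which is also expressed by smooth muscle and endothelium, stood at 601, 875 and 312 in wild type and 262, 249 and 131 under the knockout label, with no overlap. The means were 596 ± 282 and 214 ± 72.2 (SD, n = 3), 2.79-fold lower, with a log2 difference of -1.42 (limma SE 0.41, 95% interval -2.37 to -0.46, adjusted p = 0.391). DESeq2 called it lower (DESeq2 log2 fold change -1.48, adjusted p = 0.0299). The leukocyte chains were low and overlapped between groups. Itga4 had 52.7 to 70.3 in wild type and 69.1 to 113 under the knockout label, and Itgb7, its partner in gut-homing lymphocytes, had 40.1 to 62.9 and 43.4 to 90.6. Both were highest in labelled-knockout library 3. Itgax, of dendritic cells and macrophages, had 77.4 to 113 and 66.8 to 128, and Itgae, of resident T cells, at most 28.4 in any library. T and NK cell markers summed to 27.3 to 37.0 and 32.9 to 62.9, and those of macrophages and dendritic cells, Itgax included, to 4421 to 8074 and 3509 to 7917. Itgb2l, a relative of Itgb2, had 178 to 236 and 74.6 to 317, and its log2 difference of -0.17 was 0.064 with DESeq2 and 0.066 with edgeR. The 7 neutrophil markers summed to 365 to 1279 and 420.2 to 3967. Cerkl on the opposite strand covers 8.04% of the exon bases of Itga4, and the use of strand in counting is not known.

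**Figure D3:**
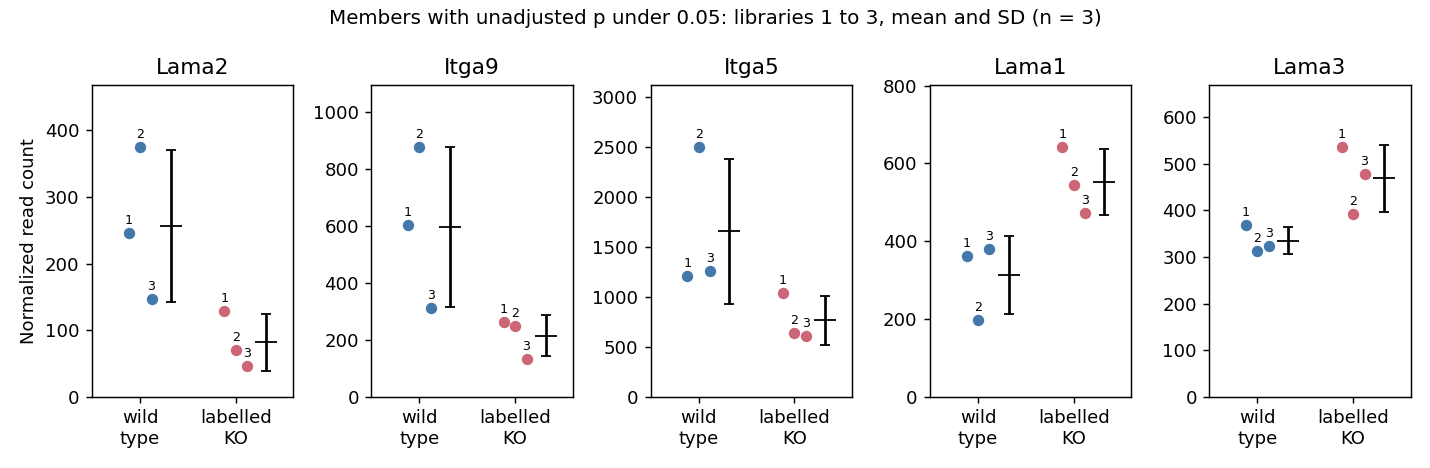
Normalized read counts (y axis, from 0) of the 5 members with an unadjusted p under 0.05 in the 3 wild-type (blue) and 3 labelled-knockout (red) libraries, numbered 1 to 3, with the mean and SD (n = 3). The groups do not overlap for any of the 5, and the nearest libraries of Lama3, at 368 and 393, lie close together.

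**Figure D4:**
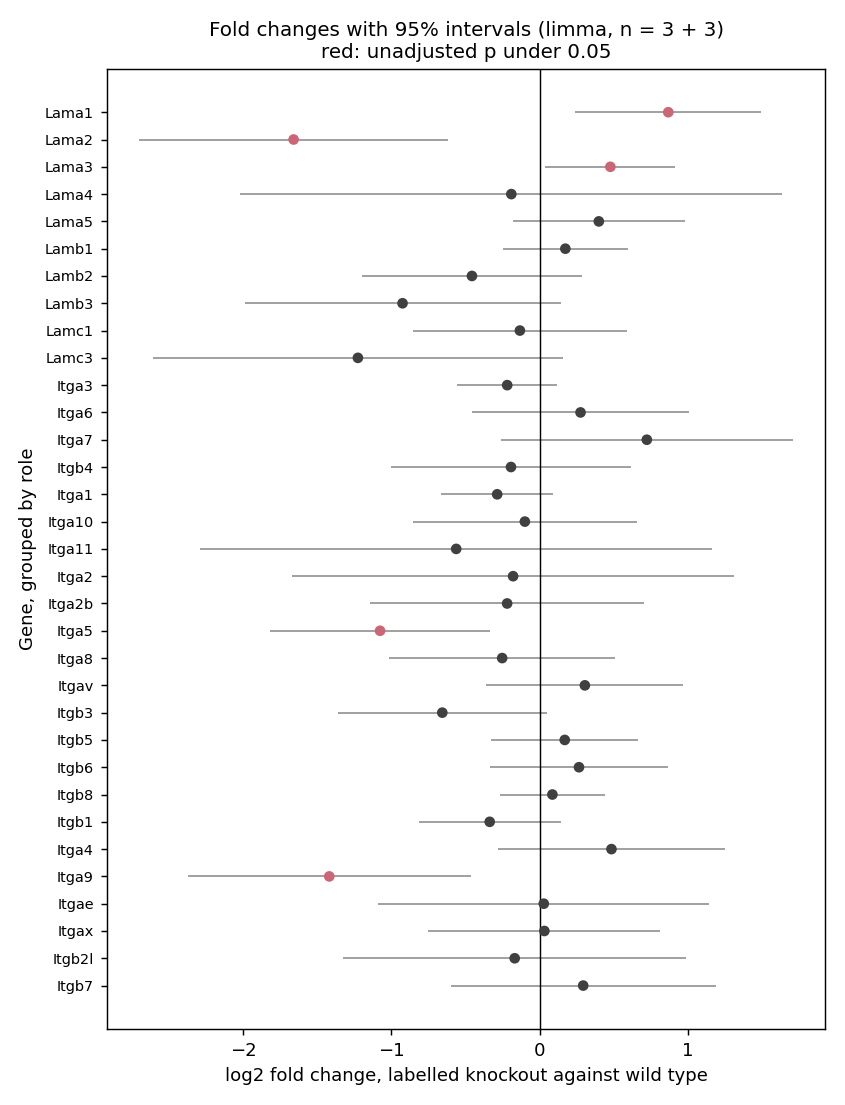
Log2 difference between the groups (x axis, labelled knockout minus wild type) with its 95% interval from limma for 33 of the 34 genes (y axis, grouped by role). The unadjusted intervals of 5 genes, in red, exclude 0, and those of the other 28 include it.

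Lama2, Itga9 and Itga5 were lowest where stromal markers were lowest. The 12 mural cell and fibroblast markers summed to 16074, 23175 and 12131 in wild type and 8104, 10035 and 4166 under the knockout label. As a percentage of the wild-type mean these sums were 47.3%, 58.6% and 24.3% in labelled-knockout libraries 1 to 3, against 50.5%, 27.3% and 18.1% for Lama2, 43.9%, 41.7% and 21.9% for Itga9 and 63.0%, 38.7% and 36.6% for Itga5. The endothelial sums stood at 71.5%, 61.7% and 31.1%. Of the mural cell and fibroblast markers, 10 of 12 had lower means on the log2 scale, 6 of them at an unadjusted limma p under 0.05. No marker of that list was at 0 in all libraries. The endothelial markers had lower means in 9 of 10, 4 of them at that p. Over all tested genes, 10878 of 21721 had lower means and 6.14% were lower at that p. Schwann cell markers, from another cell type that makes Lama2, summed to 407 to 514 in the wild-type group and 370.5 to 637 in the other. The part of stromal content in the values of the 3 genes was not tested.

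**Figure D5:**
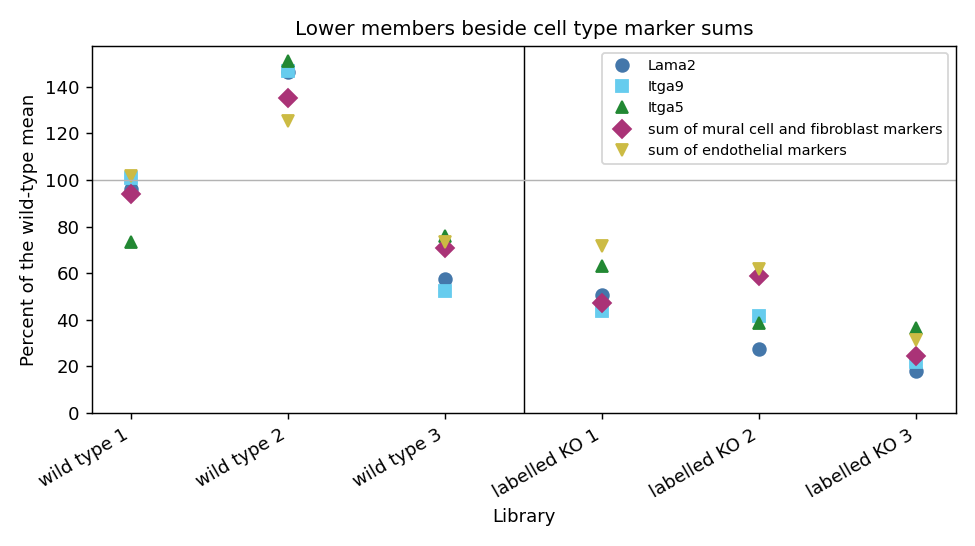
Lama2, Itga9, Itga5 and the summed mural cell and fibroblast and endothelial markers in each library (x axis) as a percentage of the mean of the 3 wild-type libraries (y axis). All 5 series are highest in wild-type library 2, between 125% and 151%, and lowest in labelled-knockout library 3, between 18.1% and 36.6%.

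The partners of these receptors were counted over lists of related genes. Of 24 other basement membrane genes, 6 were lower and 2 higher at an unadjusted p under 0.05, with a median log2 difference of -0.46, where 6.14% of all tested genes were lower and 3.94% higher. The 4 of smallest p were Pxdn, the peroxidase that crosslinks collagen IV (-0.85), Sparc, a collagen-binding matrix protein (-1.11), Col15a1 (-1.29) and Frem1 (-1.75). Among integrin ligands outside the basement membrane, 8 of 23 were lower and 0 higher by the same limma p, with a median of -0.48 and against the same 6.14% and 3.94%. Mfge8, an RGD protein that bridges cells to dying cells, stood at 3383, 5027 and 4386 in wild type and 2283, 2190 and 2294 under the knockout label (log2 difference -0.90, limma SE 0.18, adjusted p = 0.368, DESeq2 adjusted p = 0.00669). The collagen genes Col1a2 (-1.86) and Col3a1 (-1.97) and the elastic fibre gene Emilin1 (-1.45) came next by p. None of the genes in these lists passed limma's threshold, and DESeq2 called 1 of the first list and 6 of the second, all lower, against 1.2% of genes called lower. Over all 5 lists of related genes, 17 were lower and 6 higher at an unadjusted limma p under 0.05. Without wild-type library 2 these counts were 10 and 3, and the higher count was 3 without wild-type library 1 and 2 without wild-type library 3. The shares of all tested genes past that p were not counted in these settings. These shifts are therefore not shown to be particular to the lists.

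Laminin receptors other than integrins had 2 of 8 lower and 1 higher at an unadjusted limma p under 0.05, against 6.14% and 3.94% of all tested genes. The epithelial proteoglycan Sdc1 stood at 1534, 1983 and 2048 in wild type and 567, 930.4 and 529 under the knockout label (log2 difference -1.49, limma SE 0.24, adjusted p = 0.251), while Sdc4 of the same family had higher values (0.50). Sgce, of the sarcoglycan complex, had -0.89 and Rpsa -0.34, and the count of Rpsa, which has many near-identical pseudogenes, is uncertain. Of 32 listed genes for adhesion proteins that act with integrins or link them to actin, 22 had higher values, against 10843 of 21721 genes. Their median log2 difference was 0.12. At an unadjusted limma p under 0.05, 2 were higher and 1 lower, a share of 9.38% that is below the 10.1% of all tested genes. The focal adhesion kinase relative Ptk2b stood at 1530, 1325 and 1796 in wild type and 2945, 2470 and 3384 under the knockout label, with no overlap (log2 difference 0.92, limma SE 0.18, adjusted p = 0.368, DESeq2 adjusted p = 0.0098). The adaptor Pxn (0.49), which binds that kinase family, Tgfb1i1 (-0.74) and Ptk2 (0.38) followed by p. The 3 leukocyte genes left out by the rule stood at log2 differences of 0.83 for Itgal, 0.56 for Itgb2 and -0.25 for Itgam. None of these passed limma's threshold, and the count of Itgam is uncertain, since it shares a stretch of 3453 bases with the entry Gm49368. DESeq2 called 1 of the 8 other laminin receptors lower, against 1.2% of genes called lower. It called 1 of the 32 adhesion genes higher, against 0.598% of genes called higher.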

How the data were processed

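Kidney RNA from 6 libraries, 3 wild type and 3 labelled Cxcr2 knockout, was grouped by the titles in the labels. The deposited signal of each gene is a read count after division by the library's size factor, which the values themselves show: in each library 100% were whole multiples of 1 step within 0.001 reads. The genome build was mm10 per the submitters' processing notes; the sources used here name no aligner, counting program or use of strand. The deposited gene length, used for per-kilobase levels, is of another kind, bases per gene model, and equalled the GENCODE M21 exon union for all 34 members. The main test was limma 3.58.1 (trend, robust) on log2(normalized count + 1) for genes whose mean was 1 or more, with Benjamini-Hochberg adjustment over 21721 genes and a threshold of 0.05. edgeR 4.0.16 (quasi-likelihood), DESeq2 1.42.0 (17223 genes with an adjusted p), other scalings, pseudocounts (0.1, 5) and filters (10, none), a replicate block and each library left out were alternatives. Shares were tested by exact permutation (scipy 1.17.1). Overlaps were found with GENCODE M21 and blastn 2.17.0 (at least 100 bases at 95%).

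The tests were first tried on simulated counts with known changes. Members and lists were chosen with earlier results of these data known. Members were named or counted, and 1 of them is not reported here; from each related list the 4 genes of smallest p were named, and Cxcr2 and Lrp2 are quoted as markers. Itgb2l was placed among the leukocyte chains after its values were seen. Ibsp of the related lists and Gp1bb, Gp6, Ckm and Myh4 of the marker lists were not analysed here.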

Additional observations from a re-analysis of the deposited data

How the results depend on the processing

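No member passed limma's threshold under TMM scaling, either pseudocount, either filter, the replicate block or with any 1 library left out, nor with edgeR, while DESeq2 called 2. Over all genes the count past the threshold was 1 in the main test and 310 with DESeq2, 4 with TMM scaling, 5 with a pseudocount of 5, 5 without the filter and 1 to 6 with 1 library left out. The median log2 difference of the members was 0.0068 with edgeR, -0.017 with DESeq2 and -0.18 to -0.035 with 1 library left out. The edgeR value is without Itga11, which the filter of that test left out. Members at an unadjusted p under 0.05 numbered 1 to 3 higher and 3 to 8 lower with 1 library left out. The matching shares of all tested genes were not counted. Lama2, Itga9, Itga5 and Lama1 were past an unadjusted p under 0.05 with the same sign in every setting run. Exon union lengths equalled the deposited lengths of the laminin genes, so shares were the same with either. In the main test the members' median was -0.17.

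The labels used here do not say whether libraries of the same replicate number belong together, and 3 libraries a group cannot settle it. Deviations from the group means correlated at 0.067, -0.15 and 0.12 between libraries of the same number. Labelled-knockout libraries 1 and 3 correlated best with the wild-type library of their own number. For library 3, wild-type library 2 was close (0.11). Labelled-knockout library 2 correlated best with wild-type library 1 (0.20). With the replicate block, 16 genes were past the threshold over all genes, none of them a member and 2 of them related genes (Col1a2 and Emilin1, both lower, where the test without the block called 0), and 1 member was higher at an unadjusted p under 0.05.

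The sign of some members turned. With edgeR and DESeq2 the log2 differences were 0.20 and 0.20 for Itga2, 0.066 and 0.064 for Itgb2l and 0.12 and 0.12 for Lama4. With 1 library left out they ran from -0.94 to 0.37 for Itga2, -0.57 to 0.47 for Itgb2l, -0.97 to 0.47 for Lama4, -0.50 to 0.091 for Itgb4, -0.047 to 0.45 for Itgb6, -0.24 to 0.068 for Itga10, -0.29 to 0.29 for Itgae, -0.51 to 0.086 for Lamc1, -0.15 to 0.32 for Itgax, -0.11 to 0.58 for Itga6, -0.067 to 0.34 for Itgb5, -1.27 to 0.080 for Itga11, -0.55 to 0.26 for Itga2b and -0.0027 to 0.52 for Itgb7. The cause was not tested. With 3 libraries a group, a member that was not called may still differ by a large factor.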
